A study of Mus musculus with 2 samples.

Results

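Fibroblast growth factors (FGFs), their receptors, an extracellular FGF carrier and the feedback inhibitors of the pathway were measured by microarray in ureters of mouse embryos at E16.5. Members were taken by gene name, from a list chosen with earlier results of these data known. It held every FGF with a number, the receptors Fgfr1, Fgfr2, Fgfr3, Fgfr4 and Fgfrl1, the carrier Fgfbp1, the Sprouty genes (Spry1, Spry2, Spry3, Spry4), the Spred genes (Spred1, Spred2, Spred3) and Dusp6. This gave 36 of the 29965 genes with a value, read by 59 probes.

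The study compared ureters of NMRI embryos with a conditional deletion of Pparg, a ligand-dependent nuclear receptor, with those of littermate controls. Mutants (Pparg-cKO) carried Pax2-cre and floxed alleles on both chromosomes, Pax2-cre/+; Pparg(fl/fl), and controls, labelled Pparg(fl/?), carried no cre in the study's account. Pax2-cre recombines in the nephric duct and its derivatives, the epithelium of ureter and collecting duct, so mesenchyme, muscle and vessels of the mutant ureter were not targeted. Each of the 2 two-colour arrays held RNA pooled from several embryos of either genotype, from females on array 1 (the female array) and from males on array 2 (the male array), and the dyes were exchanged between them. The arrays therefore differed in dye and in sex together, and their effects cannot be told apart. The stage field of the second channel says E14.5 on both arrays, whereas the titles and protocols say E16.5 for all ureters.

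FGFs are secreted proteins that bind receptor tyrosine kinases together with heparan sulphate, and the activated receptor signals through adaptors, RAS and the MAP kinase cascade. In many branching and stratified organs mesenchymal ligands such as FGF7 and FGF10 act on an epithelial splice form of FGFR2, while ligands such as FGF9 act from the epithelium on the mesenchyme. Sprouty and Spred proteins and the phosphatase DUSP6 are induced by or act on the same cascade and dampen it, and their RNA, with that of Etv4 and Etv5, is widely read as a gauge of pathway activity.

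All values below are processed signals, in intensity units after background subtraction and dye normalization, averaged over the unflagged ones of 4 spots per probe. A signal depends on the probe as well as on the RNA, so signals were compared within a probe. The exception is sums over marker lists, which compare the RNAs over the same probes and in which the brightest probes weigh most. RNA A denotes the RNA labelled with AlexaFluor647 (red) on array 1 and with AlexaFluor555 (green) on array 2, and RNA B the other. By the dye fields of the labels RNA A is the control, but the titles name the mutant first, with no dye, and the study's own account, which reads its fold changes as mutant over control, takes RNA A as Pparg-cKO, so every difference is given as brighter in RNA A or in RNA B without a genotype. The Pparg probe read RNA A at 11295 against 7430 for RNA B on the female array and at 12888 against 7872 on the male array. It was not used as a check of genotype, since its place relative to the floxed exons was not annotated here and the mutant allele still makes an RNA in the study's account.

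On both arrays no spot was saturated, and 80.3 and 80.4% of green spots but 70.4% of red spots were well above background. Of the cell types that make up a ureter, all 7 markers of epithelium, all 9 of urothelium and all 11 of mesenchyme and smooth muscle passed the filter on background. So did 6 of 8 nephron, 4 of 4 liver, 4 of 4 endothelial, 3 of 3 measured myeloid and 3 of 3 mast cell markers.

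Of the 36 member genes, 31 were well above background in the same RNA on both arrays and entered the limma fit across all 21414 such genes. The 5 others were ligands. Fgf3 and Fgf4, which signal in the early embryo and in limb and ear, and the endocrine Fgf15 had no spot above background on either array. Fgf2, a matrix-bound growth factor for mesenchymal and endothelial cells, and the X-linked Fgf16 passed the background filter only in the green channel of each array, and hence in different RNAs. A gene was represented by its brightest probe, and 19 of the 31 reached a signal of 100 in the brighter RNA on each array.

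The carrier Fgfbp1 was the only member gene at least 1.5-fold brighter in the same RNA on both arrays with a signal of 100 or more. It was brighter in RNA A, as were 0.157% of all genes. No member passed this filter towards RNA B, where 0.23% of all genes did, and none passed it in opposite directions, where 0.431% did. By limma, with Benjamini-Hochberg adjustment over all genes tested, 0 of 31 members had an adjusted p under 0.05, where 0.107% of all genes were called towards RNA A and 0.182% towards RNA B. Without adjustment 2 members, Fgfbp1 and Spred3, were under 0.05, as were 3.78% of all genes tested. The fit rested on 2 arrays and 1 residual degree of freedom. Its p-values weigh the spread between these arrays, which differ in dye and sex, together with a variance shared across all genes tested. Since each array holds pools, they do not measure the spread between embryos.

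Across the 31 members the median log2 ratio of RNA A over RNA B was 0.047, against 0.0066 over all genes tested. It was -0.02 on array 1 and 0.19 on array 2. RNA A was the brighter on both arrays in 9 members (29.0%, against 21.6% of all genes tested), RNA B in 2 (6.45%, against 17.4%), and 20 changed sign between the arrays (64.5%, against 61.0%).

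**Figure D1:**
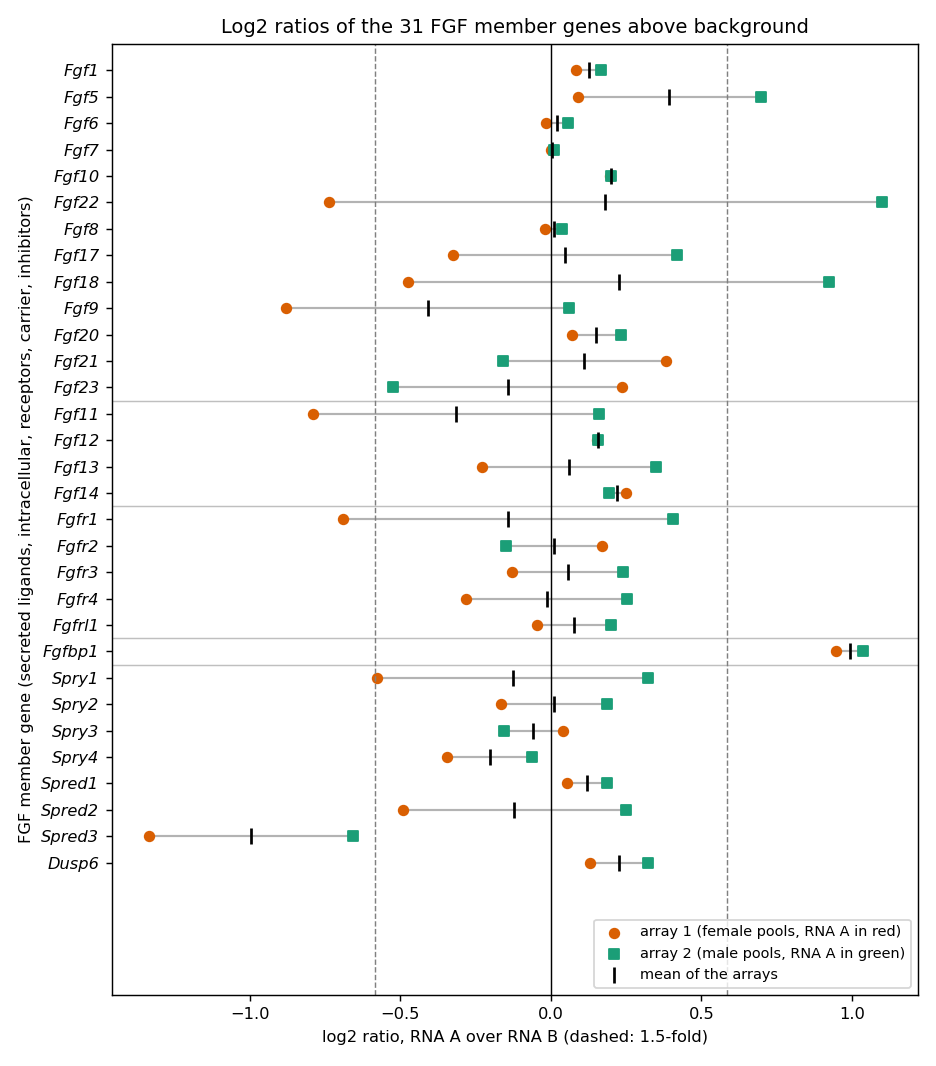
Log2 ratio of RNA A over RNA B (horizontal axis) of each of the 31 member genes tested (vertical axis, ordered by role), with circles for array 1, squares for array 2, ticks for their mean and dashed lines at 1.5-fold. The 2 points of Fgfbp1 lie together at 0.95 and 1.04, whereas the line between the arrays crosses 0 for 20 genes.

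Fgfbp1 encodes a secreted protein that binds several FGFs and releases them from the heparan sulphate of the matrix. The female array read RNA A at 214 against 111 for RNA B, and the male array at 223 against 109. Both values of RNA A were above both of RNA B. The mean log2 ratio was 0.99 ± 0.06 (SD, n = 2 arrays), a fold of 1.99, with a limma standard error of 0.20 and an adjusted p of 0.138. The difference was larger than the spread between the arrays but did not pass the threshold after adjustment over all genes, and the adjusted p ranged from 0.119 to 1 over the alternative settings.

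The value rests on a single 60-base probe, which maps to chr5:44370565-44370624 on the minus strand (mm9). Its first 30 bases are shown because the only member past the filter rests on this probe, with nothing marked in capitals. Which RNA the probe bound was not tested.
Fgfbp1 probe 1: ggagccaaacaggatcaaagaagacatcac

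Markers of other cell types moved along with or against Fgfbp1, and in whole tissue fewer cells of a type and less RNA per cell cannot be told apart. For 5 of the 9 urothelial markers RNA B was the brighter on each array. Among these were Upk3b (mean log2 ratio -1.69) and Upk1a (-1.32), proteins of the superficial cell plaque. The basal cell keratin Krt5 was brighter in RNA A on both (0.47), while Trp63 (-0.11), Gata3 (-0.38) and Foxa1 (-0.21) changed sign between the arrays. The 9 summed to 61654 for RNA A against 99032 for RNA B in females and to 65245 against 99735 in males. Upk3a alone read 32480 against 50577 in females and 30472 against 51987 in males. Of the 11 markers of mesenchyme and smooth muscle RNA B was the brighter on each array for 7. Among these were the contractile genes Myh11 (-0.80), Cnn1 (-0.72) and Acta2 (-0.56), with Col3a1 near even (-0.08). Tbx18 (0.01), Des (-0.12), Col1a1 (-0.06) and Pdgfra (-0.02) changed sign between the arrays. The median of the 11 was -0.56, against -0.57 for the urothelial markers. The 11 summed to 182163 for RNA A against 229418 for RNA B in females and to 201002 against 236300 in males. Acta2 alone read 49285 against 58116 in females and 39606 against 72555 in males. Of the 7 epithelial markers the keratins Krt8 (-0.39) and Krt18 (-0.55) had negative log2 ratios on each array. The other 5 changed sign between the arrays, among them the keratin Krt19 (-0.29 and 0.29). The 3 mast cell markers summed to 1615 against 1068 in females and to 1443 against 1029 in males, with Cpa3 brighter in RNA A (mean log2 ratio 1.34) and Tpsb2 at 0.01. The 3 myeloid markers were all brighter in RNA A on both arrays, by 0.14 to 0.17 on the log2 scale. The part of these cell types in the difference of Fgfbp1 was not tested.

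Among the secreted ligands, 13 of 18 were tested and none passed the filter. Their mean log2 ratios ran from -0.41 to 0.39. The mesenchymal ligands of FGFR2 were close to even between the RNAs. For Fgf7 RNA A read 2421 against 2423 in females and 2476 against 2458 in males, a mean log2 ratio of 0.0049 ± 0.0084 (SD, n = 2). For Fgf10 it read 673 against 588 in females and 743 against 646 in males. RNA A was the higher within each array by nearly the same step, a mean log2 ratio of 0.20 ± 0.0042 (SD, n = 2), with an adjusted p of 1.00 by limma. Fgf22, of the same subfamily, was dim and turned over, with RNA A at 20.7 against 34.6 in females and at 46.1 against 21.5 in males.

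Fgf18, of the Fgf8 subfamily and known for its roles in lung, bone and cartilage, showed the widest gap between the arrays among ligands with a signal of 100. RNA A read 2049 against 2846 for RNA B in females and 4009 against 2111 in males. It was thus the dimmer on the female and the brighter on the male array, with log2 ratios of -0.47 and 0.92. A second probe gave -0.38 and 0.85. The probes overlap on the minus strand of chromosome 11, at chr11:33017440-33017499 and chr11:33017474-33017533 (mm9), and are shown because they share sequence and so read the same stretch of RNA. Capitals mark the 26 shared bases in 30 bases of each.
Fgf18 probe 2: ttgaACGAGGAAACTGCGAGAAACCAAAGT
Fgf18 probe 1: ACGAGGAAACTGCGAGAAACCAAAGTcctt
Their accord is therefore a technical repeat on the same RNA and no second sample.

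Fgf9, an epithelial ligand that acts on mesenchyme, read 92.6 for RNA A against 171 for RNA B in females, and 104 against 99.5 in males. Only RNA B of the female array stood apart, and the mean log2 ratio of -0.41 ± 0.67 (SD, n = 2) did not exceed the spread between the arrays. Fgf5, best known as a brake on hair growth, read 104 against 98.2 in females and 201 against 124 in males, a mean of 0.39 ± 0.43, with RNA A of the male array alone standing apart. By their brightest probes Fgf1 (mean 0.13) and Fgf20 (0.15) were slightly brighter in RNA A on both arrays, and Fgf6 (0.02), Fgf8 (0.01) and Fgf17 (0.05) changed sign. The second, dimmer probes of Fgf1 (0.43 and -0.21) and Fgf20 (-0.04 and 0.26) changed sign as well. Of the endocrine ligands Fgf21, which the liver secretes in fasting, was near background, at 7.33 to 11.4.

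Fgf23, the phosphate-regulating hormone of bone, was bright by 1 probe and not above background by the other. The bright probe read RNA A at 8801 against 7466 in females and at 7208 against 10365 in males, whereas no channel of the other probe exceeded 2.00. Both are given from their first base, at chr6:127030758-127030787 and chr6:127031289-127031318 on the plus strand (mm9), because the bright probe opens with a CA repeat, marked in capitals.
Fgf23 probe 1: cCACACACACACACACACACAtacatgtaa
Fgf23 probe 2: tttagtgaaagcctccgctagcaggttgac
The repeat holds 10 units, and 8 or more units in a row occur in 32 of 39381 probes (0.0813%). Which RNA the bright probe bound was not tested, and the other probe did not repeat its signal.

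The intracellular FGFs, which are not secreted and bind voltage-gated sodium channels, were all tested and all below a signal of 100. Fgf14 read 85.9 for RNA A against 72.3 for RNA B in females and 76.7 against 67.1 in males (mean log2 ratio 0.22 ± 0.04), with RNA A the brighter on both arrays. Fgf12 was brighter in RNA A on both as well (0.16). Fgf11 read 38.5 against 66.6 in females and 90.8 against 81.3 in males, a mean of -0.32 ± 0.67. Fgf13 had a mean of 0.06, and by their brightest probes both had opposite signs on the arrays. The second probe of Fgf11, at signals of 15.5 to 19.5, was brighter in RNA A on both arrays (0.07 and 0.34). That of Fgf13 was near even (-0.03 and -0.04).

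**Figure D2:**
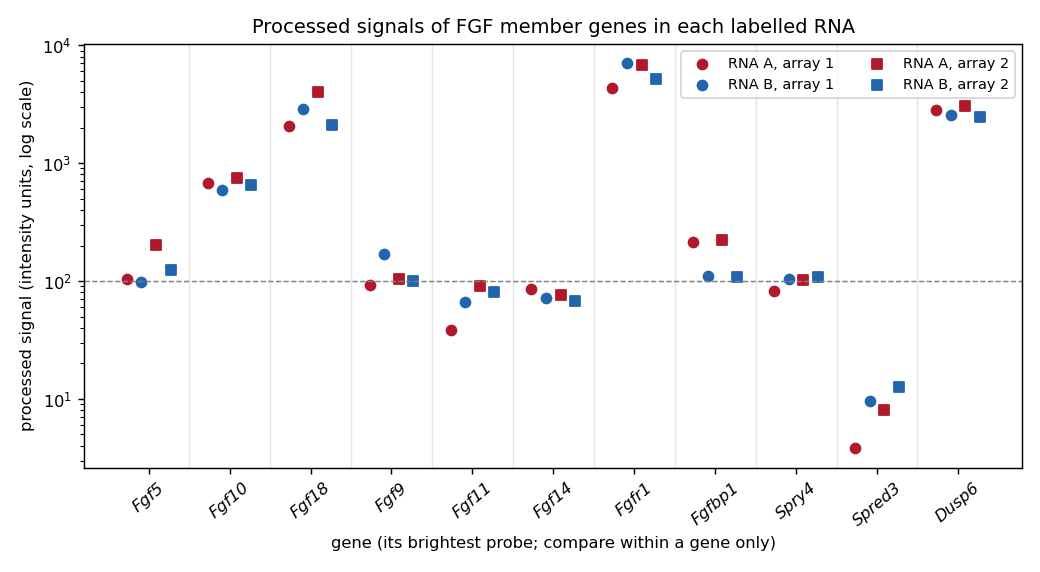
Processed signals (vertical axis, log scale, intensity units) of the 11 members named with full values (horizontal axis), with RNA A in red, RNA B in blue, circles for array 1, squares for array 2 and a dashed line at 100. In Fgfbp1 the red points lie at 214 and 223 and the blue at 111 and 109, whereas in Fgf18 the order of red and blue turns between the arrays.

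All 5 receptors were tested, none passed the filter, and by their brightest probes all 5 changed sign between the arrays. Their mean log2 ratios lay between -0.14 and 0.08. Fgfr2, the epithelial receptor of FGF7 and FGF10, read 966 for RNA A against 859 for RNA B in females and 865 against 959 in males, and its second, overlapping probe gave log2 ratios of 0.26 and -0.14. Fgfr3, which restrains growth of cartilage and is expressed in urothelium, had a mean of 0.06, from log2 ratios of -0.13 and 0.24. Its second probe turned in the opposite sense (0.15 and -0.15), and the dimmest probe, at signals of 5.19 to 14.2, was brighter in RNA B on both arrays (-0.65 and -0.55). Fgfr4 had a mean of -0.01, and Fgfrl1, which lacks the kinase domain, of 0.08.

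Fgfr1, the main receptor of mesenchyme, was read by 3 probes that disagreed. The brightest read RNA A at 4351 against 7020 in females and at 6797 against 5134 in males, log2 ratios of -0.69 and 0.40. The second read 1683 against 1102 in females and 764 against 1709 in males, log2 ratios of 0.61 and -1.16, so it turned over in the opposite sense. The third read 301 against 337 in females and 272 against 290 in males, log2 ratios of -0.16 and -0.09. The 3 means were closer, at -0.14, -0.28 and -0.13. All 3 probes lie within chr8:26684061-26685879 on the plus strand (mm9), and their first 30 bases are shown to let them be compared, with runs of 3 or more T in capitals.
Fgfr1 probe 1: gagacgcccagggtagcatccgttgctata
Fgfr1 probe 2: agccttagagggTTTgTTTTTgTTTTTTgt
Fgfr1 probe 3: agacctacgttcaagcagttggtggaagac
The second probe holds 36 T in 60 bases, against a median of 17 over all probes, and 16 of 39381 probes (0.0406%) hold as many. On array 2 its value came from 2 of 4 spots, the others being flagged.

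**Figure D3:**
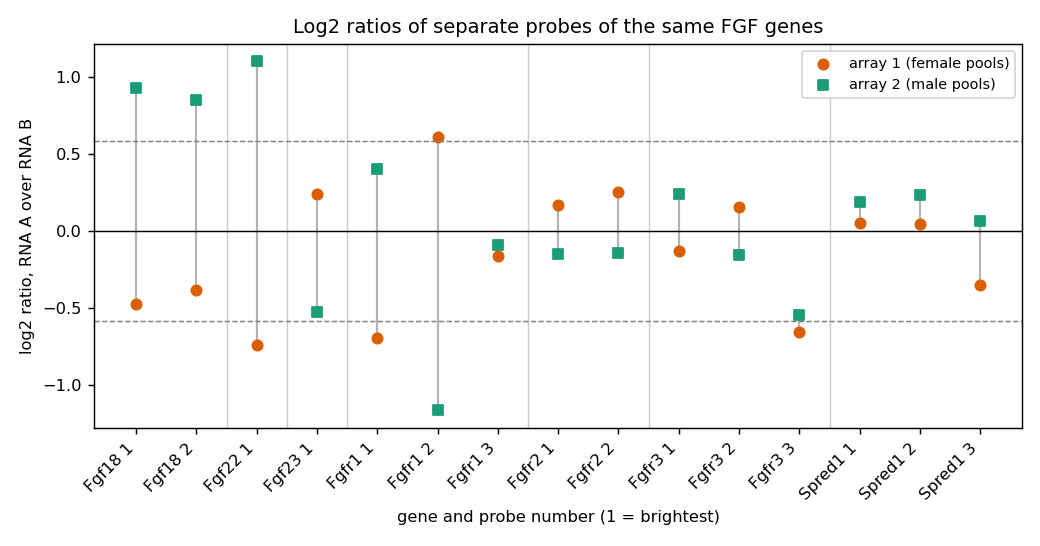
Log2 ratio of RNA A over RNA B (vertical axis) of each probe above background (horizontal axis) for 7 members, with circles for array 1, squares for array 2 and dashed lines at 1.5-fold. The probes of Fgf18, Fgfr2 and the brighter pair of Spred1 repeat each other, whereas probe 1 of Fgfr1 (-0.69 and 0.40) and its probe 2 (0.61 and -1.16) turn in opposite senses.

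The feedback inhibitors were all tested, 8 of 8, and none passed the filter. Dusp6, the phosphatase that inactivates ERK and a direct readout of FGF signalling, read 2813 for RNA A against 2573 for RNA B in females, and 3044 against 2436 in males. RNA A was the brighter on both, with a mean log2 ratio of 0.23 ± 0.14 (SD, n = 2) and an adjusted p of 1.00 by limma. For Spry4 RNA B was the brighter on both, at 104 against 81.9 in females and 108 against 103 in males (mean -0.20 ± 0.20). Spry1, an inhibitor that restrains ureteric budding, read 1469 for RNA A against 2191 in females and 2235 against 1787 in males and so changed sign (-0.58 and 0.32), as did Spry2, Spry3 and Spred2. Spred1 was slightly brighter in RNA A on both (0.12) by its brightest probe, and its dimmest probe changed sign (-0.35 and 0.07).

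Spred3, the third of the SPRED inhibitors of RAS signalling, was read near background. RNA A read 3.82 against 9.63 for RNA B in females and 8.06 against 12.7 in males, and was above background on 1 of 2 arrays. The mean log2 ratio was -0.996 ± 0.48 (SD, n = 2) with an adjusted p of 0.262 by limma. It was -0.23 with normexp background correction and loess together, and -0.10 in the value table of the submitters. The cause of these differences in size was not tested.

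Among other genes of the pathway, from 6 lists, 53 of 55 were tested, with a median log2 ratio of -0.07. None passed the filter towards either RNA, 1 (Hs2st1, 0.60 and -0.94) passed in opposite directions, and 0 were called by limma. Without adjustment 1 was under 0.05, below the 3.78% of all genes tested. This was Sos1, the exchange factor that loads RAS with GTP. It read 98.9 for RNA A against 63.2 in females and 115 against 71.7 in males, a mean log2 ratio of 0.66 ± 0.02 with an adjusted p of 0.596 by limma. It was over 1.5-fold brighter in RNA A on both arrays but its signal on the female array lay just under 100. Among the 9 adaptors Frs3, a docking protein of the receptors, followed at -0.29. Of 10 co-receptors and co-factors tested, the syndecan Sdc4 had the largest mean (-0.43), with the adhesion protein Flrt2 next (0.33). On both arrays 3 leaned to RNA A and 2 to RNA B. Fgfbp3, listed here and not among the members, changed sign (-0.44 and 0.23). Of 10 heparan sulphate enzymes Sulf1 (-0.25), which trims sulphate groups, and Ndst2 (-0.20), which adds them, led. Among 9 kinases and regulators of the RAS cascade, Nf1, a brake on RAS, had a mean of -0.15 and the ERK kinase Mapk3 a mean of -0.06. Of 6 other inhibitors the phosphatases Dusp9 (-0.38) and Dusp4 (-0.15) led. Of 9 transcriptional targets tested, Fos (-0.34) and Myc (-0.20) led, and Etv4 (-0.07) and Etv5 (0.07) changed sign between the arrays.

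The ratios that changed sign between the arrays did so mostly in the same sense. On both arrays 16 of 31 members were brighter in the green channel, that is in RNA B of the female and RNA A of the male array, and 4 were brighter in the red channel on both. Over all genes tested the shares were 32.6% and 28.4%, against 51.6% and 12.9% of the members. The other pathway genes showed 27 of 53 (50.9%) and 8 of 53 (15.1%). The count of members brighter in green was 13 to 17 over the other settings and lowest, with 7 brighter in red, where all probes of a gene were averaged. Brighter in green on both were 4 of 5 receptors, 7 of 13 secreted ligands and 3 of 8 inhibitors. Only 1 array holds each arrangement, so dye and sex cannot be told apart in it and the difference was not tested.

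Signals of the 2 RNAs of each array were then averaged, which balances the dyes, and compared between the female and the male array after scaling by the 75th percentile. With 1 array per sex this difference has no replicate check. Fgf8, a ligand needed in early nephrons, had 63.7 and 64.5 on the female array and 40.3 and 39.3 on the male array, 0.79 higher on the log2 scale. Its second probe above background was 1.44 higher, but on the male array it read only 11.3 and 11.2, from 2 of 4 spots. Fgf20, dim at signals of 25.3 to 38.4, was 0.56 higher on the female array, by a second, overlapping probe 0.62, and Fgf9 0.41. Fgf20 and Fgf9 are ligands that maintain nephron progenitors. As high or higher than Fgf8 were 1.47% of all genes tested, than Fgf20 3.26% and than Fgf9 5.39%. The female minus male difference had an SD of 0.29 over all genes tested and of 0.18 over those with a signal of 100.

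Nephron markers moved the same way. Of 8 markers 6 were tested, and all 6 were higher on the female array, among them the progenitor genes Six2 by 0.77 and Cited1 by 0.60, Wt1 by 0.47, Lhx1 by 1.99 and Slc34a1 by 0.25 on the log2 scale. The 8 markers summed to 4988 for RNA A against 6601 for RNA B in females and to 4270 against 3852 in males. Within the female array Fgf9 was brighter in RNA B, as was this sum. Fgf8 (63.7 for RNA A against 64.5) and Fgf20 (38.4 against 36.6) were near even there. RNA B was the green channel of that array, and the sum was the higher in green on the male array too. All 4 liver markers were higher on the female array too, by 0.94 to 1.18 on the log2 scale, and summed to 6705 for RNA A against 6503 for RNA B in females and to 2188 against 5496 in males. The part of kidney or liver tissue in the signals of Fgf8, Fgf9 and Fgf20 was not tested.

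Of the X-linked members tested, Spry3, dim at signals of 29.9 to 47.7, was 0.68 higher on the female array. Fgf13 was 0.19 higher there, by its second probe 0.65. At least 1.5-fold brighter on the female array were 2 members (Fgf8 and Spry3), as were 2.90% of all genes tested, and on the male array 2 (Fgf11 and Spred3), as were 0.677%. The second, dimmer probe of Fgf11 did not repeat this and was 0.14 higher on the female array. Fgfbp1 differed by 0.09.

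**Figure D4:**
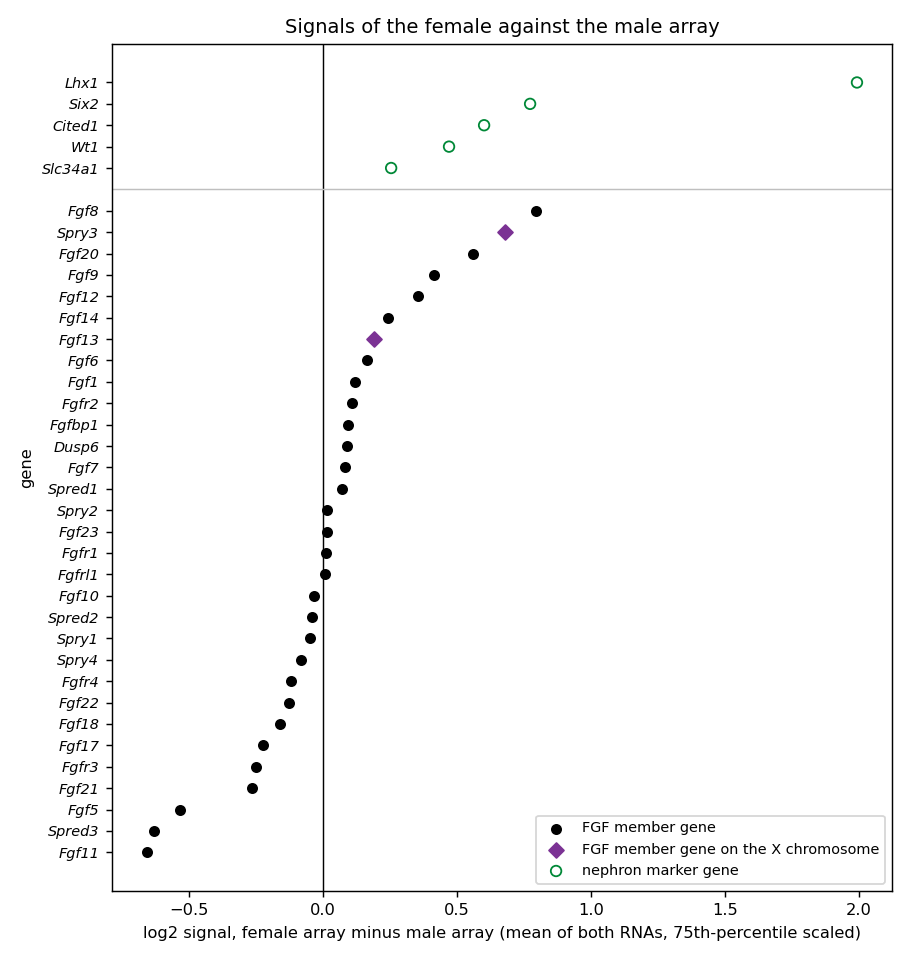
Log2 signal of the female minus the male array (horizontal axis), averaged over both RNAs and scaled by the 75th percentile, of the 31 member genes tested (filled circles, diamonds for the X chromosome) and of the 5 nephron markers named (open circles), each on a line of the vertical axis. Fgf8 (0.79), Spry3 (0.68), Fgf20 (0.56) and Fgf9 (0.41) lie highest among the members, and these nephron markers lie between 0.25 and 1.99.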

How the data were processed

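Total RNA from pooled ureters was labelled and hybridized by the submitters to 2 two-colour Agilent arrays with 4 spots per probe, on 1 slide. Per the file headers and labels, Agilent Feature Extraction 10.7.3.1 subtracted background and dye-normalized the intensity of each channel, and the deposited log10 ratio is red over green of these processed signals. The authors' value table holds a score per probe and array, a signed fold change of 1 or more in size, which correlated with the log2 ratio of RNA A over RNA B at r = 0.997 on both arrays, over 18716 and 18969 probes with signals of 100. Its scale and direction are as found by this comparison. It also is the authors' own contrast, and was used only as an alternative source of values.

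Of 157716 probe spots per array, 5705 and 5579 were left out as flagged. Log2 processed signals were averaged per probe, and 28757 of 39429 probes were named through RefSeq (GRCm38.p6) accessions, the others by the file. Probe positions were taken as the files give them, in mm9. A gene took its probe with the highest mean signal. Genes with at least 0.5 of spots well above background in the same RNA on both arrays entered limma 3.58.1 (R 4.3.3; lmFit with an intercept, eBayes, Benjamini-Hochberg), which was tested on simulated data. The filter asked for 1.5-fold on both arrays and a signal of 100 in the brighter RNA, after the study's methods. Members were named in full where a signal of 100 came with 1.5-fold on an array or the mean was among the 10 largest, and of each other list the 2 largest. The members, lists and tests were chosen with earlier results of these data known. Precision is limited by the number of arrays. Some genes of the lists are not reported here by name.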

Additional observations from a re-analysis of the deposited data

Results flagged for a closer look

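The second probe of Fgfr1 was more than 1.5-fold brighter in RNA A on the female array and more than 1.5-fold brighter in RNA B on the male array, at signals above 100. Its log2 ratio was 1.77 higher on the female array (0.61 against -1.16). With 1 array per sex, and with the dyes exchanged between them, the difference was not tested, and the other 2 probes of Fgfr1 did not share it (-0.69 and 0.40, -0.16 and -0.09).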

How the results depend on the processing

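The count of members called by limma was 0 under all 7 alternatives that gave a fit, and Fgfbp1 passed the 1.5-fold filter towards RNA A under all but the 2-fold threshold, where the count was 0. Over all genes limma called 62 genes as reported but 1 with normexp and loess, 27 with loess on processed signals, 1 after centring, 0 from the submitters' table, 45 with probes averaged, 0 without the filter on dim probes and 67 with an intensity trend. Towards RNA B, 1 member (Spred3) passed without an intensity threshold (0.798% of all genes) and 1 when well above background replaced the signal of 100 (0.494%). In opposite directions 2 passed without a threshold (Fgf22 and Fgf4; 11% of all genes), 1 when well above background sufficed (Fgf22; 1.3%), 1 with 1.5-fold asked of the mean (Fgf18; 1.18%) and 1 with probes averaged (Fgf23; 0.334%). Leaving out an array gave 1 to 3 members towards RNA A (with Fgf5 and Fgf18 on array 2 alone, where 1% of all genes passed) and 0 to 2 towards RNA B (Fgf9 and Fgfr1 on array 1 alone, where 2.13% passed). With either array left out the log2 ratio ranged, across 0, from -0.88 to 0.061 for Fgf9, from -0.69 to 0.40 for Fgfr1, from -0.79 to 0.16 for Fgf11 and from -0.47 to 0.92 for Fgf18. The counts 1.5-fold brighter on the female array became 1 without scaling and 4 with probes averaged, and on the male array 1 with probes averaged, alternatives chosen after seeing the data, as were those of the counts by dye and of the other pathway genes. The median of the members kept its sign except on array 1 alone (-0.02), and that of the other pathway genes except on array 2 alone (0.08). The cause of these shifts was not tested. A slide block could not be fitted on 1 slide, and limma could not be run on 1 array. No paired analysis was possible because each array already sets both RNAs against each other and the arrays form a single group.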
